A study of Mus musculus with 6 samples.

Results

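The gelsolin and villin family comprises actin-binding proteins built from repeats of the gelsolin domain. Its 8 mouse genes examined here were taken by symbol: Avil, Vil1, Vill, Gsn, Scin, Flii, Svil and Capg. Each symbol had a single row among the 55356 genes of the deposited table. They were measured in myotubes of C2C12, a mouse myoblast line whose cells fuse into muscle fibre-like cells in culture. One group of 3 libraries came from myotubes treated with 20 µM sorafenib, an inhibitor of several protein kinases, for 24 h. The other group of 3 libraries came from myotubes kept for 24 h in the solvent, 0.1% DMSO. Per the series text, the replicates were separate experiments. All 6 libraries share 1 immortalized line, and no genetic change is named in the labels.

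Most proteins of the family use calcium-dependent gelsolin domains to cut actin filaments, to cap their fast-growing ends, or both. Villin, advillin, villin-like protein and supervillin carry an additional headpiece at the C terminus, which binds the side of the filament. In muscle, gelsolin and supervillin are the members best known, supervillin as a protein of the membrane attachment sites called costameres, while villin marks the microvilli of gut epithelium and advillin is known mainly from sensory neurons.

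Values are the authors' normalized counts, in which a single read is worth between 0.913 and 1.19, and normalized totals were 70211431 to 70598400 in sorafenib and 77972419 to 78898086 in DMSO. Estimated depth was 76.4 to 77.4 M reads in sorafenib and 65.5 to 80.2 M in DMSO. All 8 muscle markers listed (Ckm, Des, Myh3, Tnnt3, Acta1, Myog, Mymk and Ttn) were present in both groups, and their summed level was 489390 to 586475 in sorafenib and 1764915 to 1900479 in DMSO. In bulk RNA, fewer cells of a type and less RNA per cell cannot be told apart. Genes whose normalized count was 10 or more in 3 or more libraries were tested, 16645 in all, and a change was called at a limma adjusted p under 0.05. By that rule 38.8% of tested genes were higher in sorafenib and 37.8% were lower, so calls in either direction covered 76.6%. The family was picked with these values in view, Avil above all, so the changes of its members are given as a description, without p-values.

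Avil stood apart from the rest of the family. Its level was 14195, 13721 and 13960 normalized counts in the sorafenib libraries, against 60.1, 66.2 and 65.9 in the DMSO libraries. All 3 sorafenib values lay far above all 3 DMSO values, and the spread within each group was small. Means were 13959 ± 237.4 in sorafenib and 64.1 ± 3.4 in DMSO (SD, n = 3 each), a ratio of 218. On the log2(normalized count + 1) scale the change was 7.75 ± 0.06 (SE), which ranked 5 from the top among the 16645 genes. The authors' deposited table gives 7.73 ± 0.12 for the same gene. Avil (ENSMUSG00000025432.12) lies on the plus strand of chromosome 10, from 127000709 to 127020994 on GRCm38 in GENCODE M21.

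The other members with an appreciable level fell, by far smaller factors. Gsn encodes gelsolin, which severs and caps filaments and exists as a cytoplasmic and a secreted form. It was at 9588, 9057 and 8964 normalized counts in sorafenib, against 22570, 24234 and 23644 in DMSO. Its groups did not overlap, and the mean was 2.55-fold lower in sorafenib (log2 change −1.35 ± 0.04, SE). Svil encodes supervillin, whose long muscle isoform is called archvillin. Svil was at 8758, 9565 and 9680 in sorafenib, against 18637, 19634 and 20368 in DMSO, without overlap. It was 2.09-fold lower in sorafenib, a log2 change of −1.07 ± 0.05.

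Flii encodes flightless I, which joins gelsolin domains to leucine-rich repeats and also acts as a coactivator of nuclear receptors. It was at 13614, 14737 and 14565 normalized counts in sorafenib, against 26196, 26077 and 26090 in DMSO. Its coefficient of variation was 4.23% in sorafenib and 0.25% in DMSO, where the libraries were nearly equal. Flii was 1.83-fold lower in sorafenib, and its log2 change was −0.87 ± 0.04. Capg encodes a protein that caps filaments without cutting them. Capg was at 7403, 6361 and 6173 in sorafenib, against 9469, 9853 and 9965 in DMSO. Its decrease was the smallest of the 4, at 1.47-fold (log2 change −0.56 ± 0.07), and its spread in sorafenib was the widest of the 4, with a coefficient of variation of 9.97% against 2.67% in DMSO. These small changes depend on the scaling of libraries: with each library scaled to equal totals the median log2 change of all genes moved to 0.17, against 0.02, and Capg became −0.40. All 4 remained lower under every scaling tried.

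Vil1, Vill and Scin were close to the limit of detection in both groups. Vil1 encodes villin, the actin bundler of intestinal microvilli. It was at 2.03, 5.44 and 4.75 normalized counts in sorafenib, against 5.78, 3.52 and 10.1 in DMSO, with overlapping groups. It did not reach the minimum and was not tested. Vill, a less studied relative of villin, was at 4.99, 2.66 and 2.14 in sorafenib and at 22.6, 17.2 and 11.1 in DMSO. Scin encodes scinderin (adseverin), a filament-severing protein of secretory cells. Scin was listed at 0, 0 and 1.96 in sorafenib and at 14.6, 13.4 and 14.3 in DMSO. Vill and Scin passed the minimum through the DMSO libraries alone, so a call for them could only be lower, and no ratio of means is given. Their fitted log2 changes depend on the pseudocount.

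Of the 8 members, 1 was called higher, 6 lower and 1 was not tested. In each of the 7 tested members the sorafenib and DMSO libraries did not overlap, which held for 79.5% of all genes tested. For Vill and Scin this was fixed in advance, since only their DMSO libraries reached the minimum. The 38.8% and 37.8% of genes called higher and lower are the background to these counts, from which nothing is read, since the family was chosen on this contrast.

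**Figure D1:**
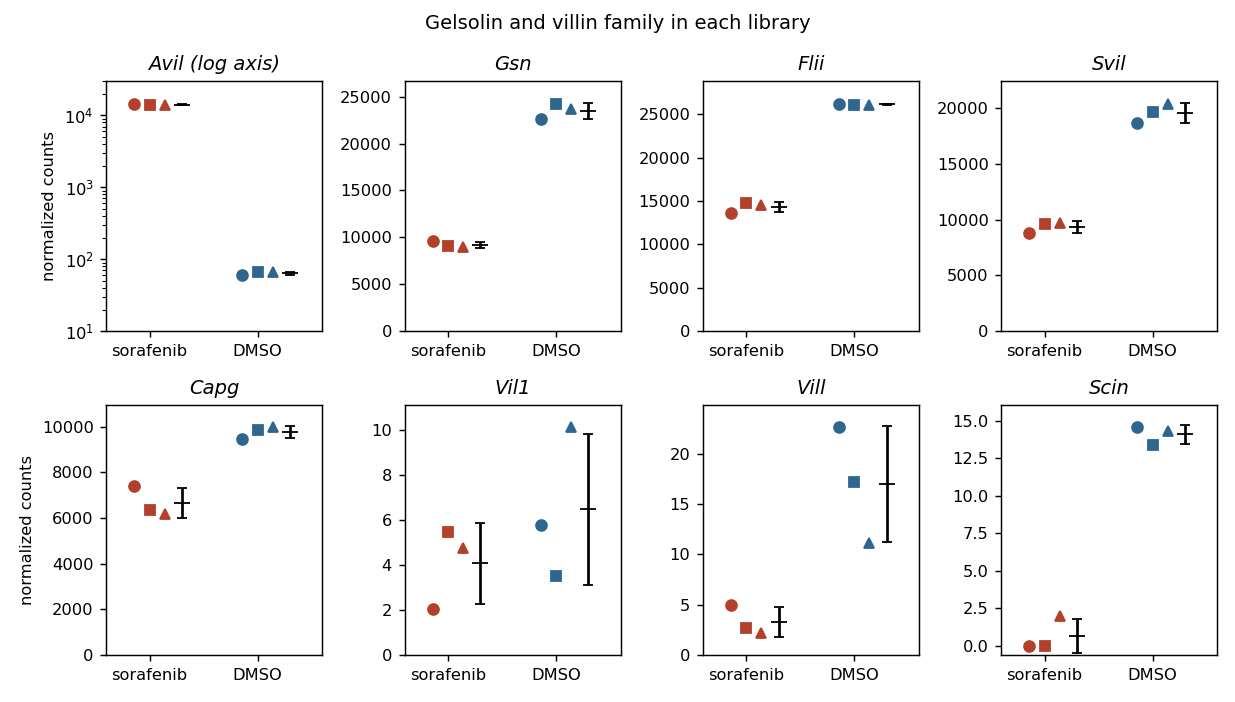
Normalized counts of the 8 members in each library, with a panel for each gene. Circles, squares and triangles are replicates 1, 2 and 3, sorafenib in red and DMSO in blue, and the black mark is the mean with its SD (n = 3). Only the Avil panel has a log axis: Avil averaged 13959 in sorafenib and 64.1 in DMSO, whereas Gsn, Flii, Svil and Capg were lower in sorafenib without overlap.

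**Figure D2:**
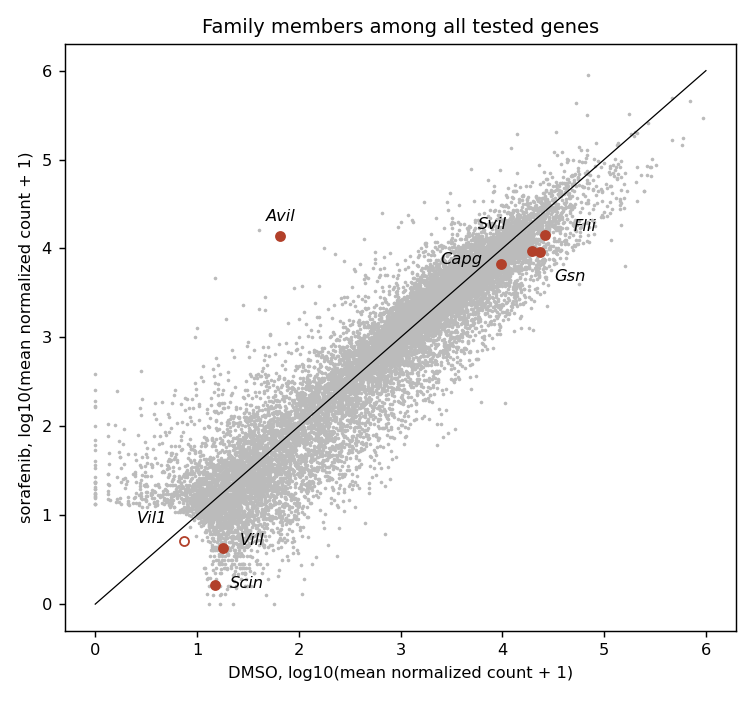
Mean normalized count of every tested gene in sorafenib (vertical) against DMSO (horizontal), both as log10(mean + 1), with equality as the black line. Red points are family members, and the open one, Vil1, was not tested. Avil lies far above the line, while Gsn, Flii, Svil and Capg lie just below it at the upper end.

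Levels were compared between members per kilobase of transcript, using the length of the annotated principal transcript in GENCODE M21. The isoforms that were present are not known, so the per-kilobase order is approximate. In sorafenib, Capg (4747 ± 473.2 normalized counts per kb) and Avil (4602 ± 78.3) headed the order, and their libraries overlapped. Gsn (3530 ± 129.2) and Flii (3523 ± 148.9) followed and also overlapped each other, and Svil came next at 1180 ± 63.6. In DMSO the order was Gsn (9008 ± 323.7), Capg (6973 ± 186.0), Flii (6434 ± 16.1), Svil (2472 ± 109.9) and then Avil at 21.1 ± 1.12 (SD, n = 3), with no overlap between these neighbours. Vil1, Vill and Scin were at 1.3, 1.12 and 0.218 per kb in sorafenib, and at 2.07, 5.83 and 4.71 in DMSO. Among 16606 tested genes with an annotated length, the per-kilobase level of Avil ranked 1138 in sorafenib and 13974 in DMSO.

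The make-up of the family differed between the groups. Avil contributed 25.8% to 26.7% of the summed per-kilobase level of the 8 genes in sorafenib libraries, against 0.0817% to 0.0863% in DMSO libraries. Gsn contributed 19.9% to 20.3% in sorafenib and 35.7% to 36.8% in DMSO. The share of Capg was 25.5% to 29.2% in sorafenib and 27.8% to 28.2% in DMSO, so the ranges overlapped. The summed level was 17586 ± 457.1 normalized counts per kb in sorafenib and 24920 ± 568.5 in DMSO, a ratio of 0.706. Without Avil the sum was 12984 ± 398.1 in sorafenib and 24899 ± 567.3 in DMSO, a ratio of 0.521.

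**Figure D3:**
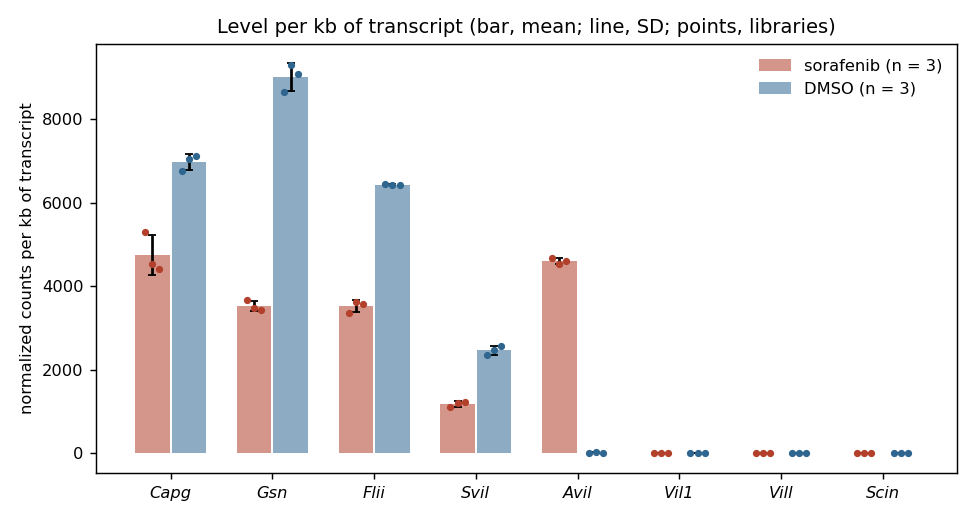
Normalized counts per kilobase of transcript for each member in sorafenib (red, left of each pair) and DMSO (blue). Bars are means, lines the SD and points the 3 libraries. In sorafenib Avil (4602) stands level with Capg (4747), while in DMSO it is at 21.1.

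Svil was left out of the promoter search. Promoter windows from RefSeq (GRCm38.p6, 250 bases before to 50 bases after the transcript start) were taken by symbol for the other 7 of the 8 members. They were searched on both strands for AP-1 (TGANTCA), CRE (TGACGTCA), a composite element bound by C/EBP and ATF proteins (TGATGCAA), the endoplasmic reticulum stress element ERSE (CCAAT, 9 bases of any kind, then CCACG), the E-box (CANNTG), the CArG box and the MEF2 site. Apart from E-boxes, only Avil and Vil1 among these 7 held a match, and no matches overlapped. The window of Avil held TGATGCAA once, beginning 17 bases before the annotated start, and 0.896% of all 32817 windows hold that element on either strand. The window of Vil1 held a CArG box, which 1.63% of windows hold. Those windows are shown with that of Flii, the member with the highest mean count, which held none of the motifs. Capitals mark the TGATGCAA of Avil and the CArG box of Vil1, and E-boxes, which 72.3% of windows hold, are left in lower case. The windows are chr10:127000459-127000758 (plus strand) for Avil, chr1:74409134-74409433 (plus strand) for Vil1 and chr11:60727214-60727513 (minus strand) for Flii, each printed 5′ to 3′.
Avil: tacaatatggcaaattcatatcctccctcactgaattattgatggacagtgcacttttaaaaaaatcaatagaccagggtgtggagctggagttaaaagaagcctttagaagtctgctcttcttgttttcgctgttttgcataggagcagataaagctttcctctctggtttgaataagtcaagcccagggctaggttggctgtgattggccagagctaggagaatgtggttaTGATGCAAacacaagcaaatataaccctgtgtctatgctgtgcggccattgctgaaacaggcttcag
Vil1: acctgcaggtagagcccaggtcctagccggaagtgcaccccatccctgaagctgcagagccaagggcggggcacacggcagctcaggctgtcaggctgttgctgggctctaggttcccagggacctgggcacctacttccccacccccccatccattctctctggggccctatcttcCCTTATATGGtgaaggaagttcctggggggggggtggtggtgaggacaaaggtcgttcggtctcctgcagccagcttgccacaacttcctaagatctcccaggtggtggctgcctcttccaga
Flii: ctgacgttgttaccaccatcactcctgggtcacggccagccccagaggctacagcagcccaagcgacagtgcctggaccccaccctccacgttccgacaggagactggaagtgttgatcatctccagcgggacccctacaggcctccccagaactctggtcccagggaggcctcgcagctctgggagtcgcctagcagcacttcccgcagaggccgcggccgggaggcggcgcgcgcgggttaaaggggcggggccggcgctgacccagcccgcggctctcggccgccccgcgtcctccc
The Avil window was 43% G and C with 2 CpG dinucleotides, that of Vil1 61.7% with 5, and that of Flii 70% with 26, against medians of 52.7% and 7 over all windows. A match describes the letters of a window and does not show that a factor binds there.

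Genes next to Avil had smaller changes than Avil, in both directions. Ctdsp2, which encodes a phosphatase and lies on the side of lower coordinates by the table's positions, was at 13939, 14446 and 14358 normalized counts in sorafenib, against 23297, 24272 and 24245 in DMSO. It fell, with a log2 change of −0.75 ± 0.03 (limma adjusted p = 6.81e-08). Eef1akmt3, which encodes a methyltransferase of the elongation factor eEF1A and lies on the other side, was at 134.3, 107.6 and 110.9 in sorafenib, against 20.5, 20.2 and 16.8 in DMSO. It rose, with a log2 change of 2.55 ± 0.18 (limma adjusted p = 1.62e-06). Tsfm, a mitochondrial translation elongation factor gene, overlaps Avil on the opposite strand. It was at 3602, 3416 and 3514 in sorafenib, against 2427, 2250 and 2322 in DMSO, and rose with a log2 change of 0.59 ± 0.04 (limma adjusted p = 2.22e-06). Of the 3003 distinct 31-base words in the principal Avil transcript, 139 (4.63%) occur in Tsfm transcripts read on the opposite strand. The library kit keeps strand, per the labels, but no source used here says whether the quantification used it. Avil was above Tsfm in every sorafenib library and far below it in every DMSO library. Whether reads of Tsfm entered the Avil values was not tested. Only 2 words of Avil were shared in the same sense with another gene, Vil1.

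Across the family, 20 tested genes overlapped a member or lay nearest to it on either side, of which 9 were higher, 8 lower and 3 did not pass. Among all 16645 tested genes, 38.8% were higher and 37.8% lower. Stom, a membrane protein gene beside Gsn, fell with a log2 change of −1.33 ± 0.04 (limma adjusted p = 4.89e-09), a size close to the −1.35 of Gsn. Mief2, a mitochondrial fission factor gene beside Flii, fell with a change of −1.13 ± 0.08 (limma adjusted p = 1.09e-06). Llgl1, a cell polarity gene that overlaps Flii, changed by 0.10 ± 0.04 (limma adjusted p = 0.035). That call was lost under several alternatives, such as quantile normalization (0.08), while with equal totals the change was 0.26 and passed. Of the 4030 words of Flii, 14 occur in Llgl1 transcripts on the opposite strand. Of the 1370 words of Capg, 29 (2.12%) occur in another gene, 5730416F02Rik, so a small part of its reads could be divided between them.

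Profiles of log2 values over the 6 libraries, each centred on its own mean, were compared by Euclidean distance. Avil was set against 11497 other tested genes with a mean of at least 100. Predicted-gene, clone, pseudogene, mitochondrial genome and missing symbols were left out. The genes most like Avil among these were H2-M10.1 (distance 0.42), Elmo1 (0.70), Tfcp2l1 (0.96), Car6 (1.17) and Snord3b3 (1.56). With only a pair of groups, such a distance mostly reflects the size of the change. Elmo1, an activator of Rac signalling, was at 5221, 4527 and 4310 normalized counts in sorafenib, against 14, 13.6 and 14.2 in DMSO. Tfcp2l1, a transcription factor gene, was at 1170, 1373 and 1290 in sorafenib, against 8.79, 9.52 and 8.96 in DMSO. H2-M10.1 and Snord3b3 were listed at 0 in every DMSO library, and Snord3b3 has near-identical copies. TGATGCAA was in none of the promoter windows of H2-M10.1, Elmo1, Tfcp2l1 and Car6. For Flii, the 5 nearest profiles were those of Isca2, Ehd4, Thop1, Rab11b and Pdha1, at distances of 0.02 to 0.05.

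Marker genes of the cell types in which members are best known were read in the same libraries. Of 8 sensory neuron markers 4 reached the minimum. The sum of all 8 was 303.7 to 339.5 in sorafenib and 966.1 to 1050 in DMSO. The vanilloid receptor gene Trpv1 was at 1.25, 2.56 and 2.55 in sorafenib, against 6.7, 13.3 and 15.6 in DMSO. The most abundant of these markers, the sodium channel gene Scn10a, was at 45.9, 90 and 92.8 in sorafenib, against 536.8, 600.7 and 592.3 in DMSO, and Scn10a and the transcription factor gene Pou4f1 were the 2 called lower. The other 2 tested did not pass, among them the intermediate filament gene Prph, at 69.7, 17.6 and 24.7 in sorafenib and 20.5, 35.9 and 11.1 in DMSO. None of the 4 was called higher. Tuft cells, a chemosensory epithelial type that also expresses advillin, are defined by the transcription factor Pou2f3, which was listed at 0 in each sorafenib library and at 0.977, 1.19 and 0 in DMSO. Of 8 tuft cell markers 3 were tested. The sum of all 8 was 26553 to 33825 in sorafenib and 110700 to 114783 in DMSO, mostly Dclk1, a kinase gene. Dclk1 and the lipoxygenase gene Alox5 were lower, while Sh2d6, an adaptor protein gene, was higher, at 228.5, 216.0 and 198.1 in sorafenib, against 45.5, 52.5 and 47.1 in DMSO. Atoh1, the defining factor of Merkel cells, was at 0 in all 6 libraries. Of 6 Merkel cell markers 1 was tested, and the sum, nearly all from the channel gene Piezo2, was 818.5 to 1079 in sorafenib and 2193 to 2258 in DMSO.

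Among 8 markers of intestinal epithelium, the site of villin, 3 were tested. The sum of all 8 was 354.1 to 377.5 in sorafenib and 646.4 to 749.1 in DMSO. Cdx2 and Fabp2 were at 0 in all 6 libraries, and the most abundant, the cadherin gene Cdh1, was at 98.6, 103.9 and 116.4 in sorafenib, against 557.3, 465.0 and 480.5 in DMSO. Cdh1 was the only 1 of the 3 called lower. The other 2 were called higher. The galectin gene Lgals4 was at 237.4, 246.0 and 214.9 in sorafenib, against 175.2, 154.1 and 186.7 in DMSO, a log2 change of 0.44 ± 0.12. The mucin gene Muc2 was at 33.8, 26.7 and 20.1 in sorafenib, against 9.76, 4.76 and 5.6 in DMSO, a log2 change of 1.88 ± 0.35. Capg is abundant in macrophages. Of 8 macrophage markers 3 were tested. The sum of all 8 was 989.2 to 1157 in sorafenib and 378.5 to 410.9 in DMSO. Cd68 and Cd14 were higher, whereas the integrin gene Itgam was lower, at 16.4, 15.6 and 19.3 in sorafenib, against 65.1, 51 and 66.8 in DMSO. Adgre1 was at 0 in all 6 libraries, and Ptprc was at 0.913, 0.919 and 0 in sorafenib and at 0.976, 0 and 0 in DMSO. The most abundant, Cd14, was at 684.5, 640.4 and 604.0 in sorafenib, against 276.4, 263.4 and 294.0 in DMSO. Of 6 fibroblast markers 4 were tested and all 4 were lower. The sum of all 6 was 37628 to 46326 in sorafenib and 192547 to 224094 in DMSO, and the most abundant was Col3a1. The muscle and fibroblast lists moved down together with Gsn, Svil, Flii and Capg, and their part in those changes was not tested.

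Most of the other actin cytoskeleton genes listed were lower in sorafenib. The lists were chosen with earlier results of these data known, so their counts are a description. The lists also hold muscle genes, such as Acta1, which is among the muscle markers above, and the part of these in the counts was not tested. Of 123 genes in 9 lists, 116 were tested, of which 74 (63.8%) were lower and 27 (23.3%) higher. Over all tested genes the shares were 37.8% and 38.8%. With equal totals the counts were 66 lower and 36 higher. Their median log2 change was −0.40, against 0.02 over all genes tested. At a change of at least 2-fold, 35 of the 116 tested genes were lower and 5 of the 116 higher. Of all tested genes, 17.3% were lower and 12.5% higher by at least 2-fold.

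All 6 actin genes, the proteins the family binds, fell, and the sum of the list was 311587 to 329931 in sorafenib and 927537 to 975435 in DMSO. Skeletal actin (Acta1), the most abundant, was at 166268 ± 14438 in sorafenib and 459173 ± 15567 in DMSO (SD, n = 3 each), 2.76-fold lower in sorafenib. Smooth muscle actin (Acta2) changed by −3.00 ± 0.05 (limma adjusted p = 8.16e-10) and cytoplasmic beta-actin (Actb) by −0.97 ± 0.04 (limma adjusted p = 3.66e-08). Reads of actin isoforms can be hard to divide, since their coding sequences are much alike.

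Of 22 tested genes that sever or depolymerize filaments or hold monomers, 13 fell and 6 rose, with a median of −0.23. With equal totals 10 fell and 8 rose, and the median was −0.07. The monomer-binding thymosins fell, Tmsb4x to 20668 ± 510.0 in sorafenib, against 76105 ± 1992 in DMSO, and Tmsb10 to 63778 ± 2996, against 145622 ± 3125. Of 17 genes of proteins at filament ends, which share the capping role of the family, 10 fell and 5 rose, with a median of −0.36 (−0.21 with equal totals). The subunits of capping protein Capza2 and Capzb changed by −0.83 ± 0.04 and −0.82 ± 0.03. Eps8, which caps and bundles filaments, went the other way, at 12539, 11637 and 11357 normalized counts in sorafenib, against 2674, 3198 and 2910 in DMSO, 4.05-fold higher in sorafenib (limma adjusted p = 2.12e-08).

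Of 13 tested bundling and crosslinking genes 9 fell and 2 rose, with a median of −0.62 (−0.35 with quantile normalization). Alpha-actinin 1 (Actn1) changed by −1.04 ± 0.03 and Vasp, which speeds filament growth, by −1.20 ± 0.04. Filamin C (Flnc), the most abundant, changed by −0.62 ± 0.03, but by −0.05 with quantile normalization, which did not pass. Of 27 nucleation genes 16 fell and 6 rose, with a median of −0.25. With equal totals 13 fell and 9 rose, and the median was −0.09. The formin Fmnl3 changed by −1.20 ± 0.04, and the Arp2/3 subunit genes Arpc2 and Arpc5l by −0.53 ± 0.03 and 0.84 ± 0.04.

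The 4 genes with a villin-type headpiece outside the family were divided, with 3 lower and 1 higher. Ablim1, an actin-binding LIM protein, was at 10201 ± 1025 in sorafenib and 35543 ± 727.1 in DMSO (SD, n = 3 each), and Ablim3 changed by −2.79 ± 0.12. Dmtn (dematin) was higher at 128.5 ± 8.87 in sorafenib, against 90.2 ± 7.71 in DMSO. Of 9 tested microvillus genes 6 fell and 2 rose. Moesin (Msn), which links filaments to the membrane, changed by −0.39 ± 0.04, and the unconventional myosin Myo7b by 2.42 ± 0.17.

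Of 8 genes of proteins reported with Flii, 4 fell and 3 rose, with a median of −0.02 that became 0.14 with equal totals. Its binding partners Lrrfip1 and Lrrfip2 moved in opposite directions: Lrrfip1 was at 17750 ± 225.2 in sorafenib and 24409 ± 486.9 in DMSO, and Lrrfip2 at 7265 ± 44.7 in sorafenib and 4304 ± 96 in DMSO. Beta-catenin (Ctnnb1) and Hras changed by −0.47 ± 0.05 and −0.86 ± 0.05. Of 10 genes of the actin-controlled transcription factor SRF, its MRTF coactivators and their usual targets, 7 fell and 2 rose, with a median of −0.70. Vinculin (Vcl) fell to 16629 ± 965.7 in sorafenib, against 52080 ± 1633 in DMSO, and calponin 2 (Cnn2) to 2679 ± 247.3, against 14425 ± 694.6. The 2 that rose were the coactivator genes Mrtfa (0.19 ± 0.04) and Mrtfb (0.18 ± 0.05), and Srf itself changed by −0.42 ± 0.04.

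**Figure D4:**
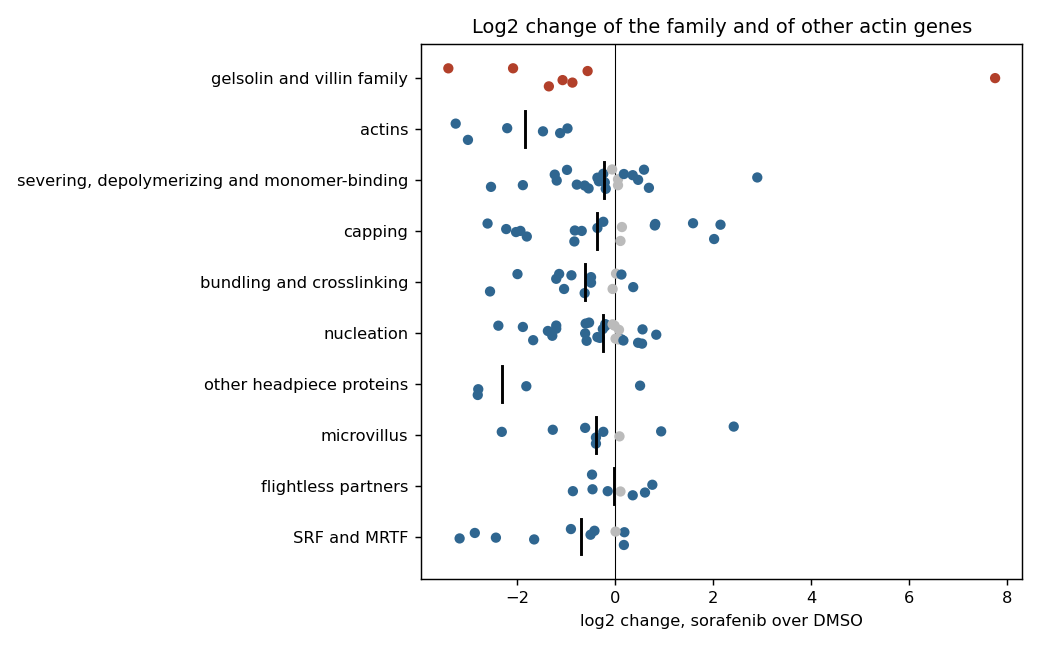
Log2 change, sorafenib over DMSO, of the 7 tested family members (red) and of the tested genes of 9 other actin lists. Blue points passed the threshold and grey ones did not. Black bars are list medians, and vertical scatter within a row has no meaning. Vill and Scin, the 2 leftmost members, rest on low counts. Avil at 7.75 lies beyond every other gene shown, and all 6 actin genes lie left of 0.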

How the data were processed

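Poly(A)-selected RNA was made into stranded libraries, per the labels' protocols. The signal values used are counts that the authors had normalized with DESeq2, per the file headers and processing notes, which also name bcl2fastq and GRCm38.p6. The mean of the 6 libraries equalled the deposited base mean for all 55356 genes (relative tolerance 1e-06). The column headers carry the words quant sf, and the program behind them is not named in the sources used here. The authors also deposited a Wald score, p-values and a log2 fold change with standard errors. From these only the log2 fold change and standard error of Avil are quoted.

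Low values were whole multiples of a single read (within 0.02) in 59.2% to 68.2% of cases, so whole reads were not recovered and no count model was run. Limma 3.58.1 in R 4.3.3 was fitted to log2(normalized count + 1) over 16645 genes, using trended, robust variances, group as the only term and Benjamini-Hochberg adjustment at 0.05. Fold changes on this scale understate low genes. The step was tested on simulated data, in which far fewer genes changed than were called here. Python 3.11.15, pandas 2.3.3 and matplotlib 3.10.9 did the rest.

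Gene positions are those of GENCODE M21, because only 3.34% of the table's positions for shared identifiers match GRCm38 within 1 base. The table's own positions served to find neighbours. Members and lists were chosen with earlier results of these data known. Named genes were all members, the 2 smallest p-values and the most abundant gene of each actin list, neighbours, the 5 likest profiles and the most abundant marker of each list; others, such as Trpv1, Prph, Muc2, Itgam, Ablim3, Dmtn, Lrrfip1, Srf and Mrtfa, were picked after their values were seen. A few genes under this rule are not reported here. Alternatives were quantile normalization, equal totals, pseudocounts of 0.1 and 10, no minimum or one of 50, the replicate block and leaving out each library. Protein sequences were not used here.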

Additional observations from a re-analysis of the deposited data

How the results depend on the processing

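The family was chosen on this contrast, so the alternatives describe only the dependence on processing. Avil (7.56 to 7.91), Gsn (−1.38 to −1.20), Svil (−1.10 to −0.91), Flii (−0.89 to −0.71) and Capg (−0.64 to −0.40) kept direction and call under all 13. Vill and Scin could be tested in 9 of the 13 and were lower in each. At the minimum used they passed through the DMSO libraries alone, so a call for them could only be lower. With a minimum of 50, or without any 1 DMSO library, they fell below the minimum and 4 members were lower instead of 6. Their size depends on the pseudocount, from −2.38 at 0.1 to −1.01 at 10 for Vill and from −5.70 to −1.18 for Scin. Leaving out a library in turn gave 5817 to 6341 higher and 5576 to 6168 lower genes over the whole table, and 26 to 28 higher and 73 to 75 lower of the other actin genes. Equal totals gave 7740 higher and 5271 lower genes. Same-numbered libraries deviated together only weakly, with correlations of 0.0769, 0.0448 and 0.022, so the numbers were not taken to pair them. Of the 6 libraries 5 correlated best with their own number. In the column headers the DMSO and sorafenib libraries of the same number also carry consecutive library numbers. Whole multiples of a read made up 68.2% (DMSO) and 68.1% (sorafenib) of low values in replicate 1, against 59.2% to 60.5% in the others. These are hints of a pairing, which no label used here states. The replicate block gave 6404 higher and 6231 lower genes, and the same 1 higher and 6 lower members. Among single genes, Gm5047, the nearest tested gene to Svil on one side, reversed to 0.03 with quantile normalization and 0.04 without sorafenib replicate 2, against −0.21, and passed under neither. Leaving out a library in turn gave it −0.54 to 0.04. The cause was not tested. The low values limit what can be said of Vil1, Vill and Scin.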

Other observations

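Some further genes of the actin lists, picked here after seeing the values, had larger changes than close relatives or than the median of their list. Ssh3, a slingshot phosphatase gene of the family that activates cofilin, was at 540.8 ± 27.5 normalized counts in sorafenib and 72.1 ± 12.5 in DMSO (SD, n = 3 each), and its log2 change was 2.90 ± 0.14 by limma (adjusted p = 1.35e-07), whereas its relatives Ssh1 and Ssh2 changed by 0.47 and −0.19. Among genes of filament ends, Carmil3, a regulator of capping protein, was at 65.7, 97.3 and 87.5 in sorafenib, against 12.3, 17.6 and 25.8 in DMSO, while the leiomodin Lmod3, which nucleates filaments in muscle, was at 3483 ± 389.5 in sorafenib and 21122 ± 1328 in DMSO. Cap2, a striated muscle member of the cyclase-associated proteins, was 5.75-fold lower in sorafenib, and its relative Cap1 changed by −0.21 ± 0.04. These differences between relatives were not themselves tested.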
